A study of Mus musculus with 6 samples.

Results

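The genes described here are 35 genes of sterol and fatty acid synthesis, chosen by name from the 24454 gene symbols of the count table. They are 18 sterol enzymes, 5 sterol regulators (counting the cholesterol carrier Stard4) and 12 fatty acid enzymes. Of these, 28 had at least 30 counts summed over the libraries (15 sterol enzymes, 3 regulators and 10 fatty acid enzymes), and the same 28 passed the filter on low counts. The 6 libraries were made from polyA-enriched RNA of cultured peritoneal macrophages, phagocytes of the abdominal cavity, from wild-type C57BL6/J male mice aged 6 to 8 weeks. In the SGA360+LPS group (2 libraries) cells received 10 µM of the AHR ligand SGA360 for 1 h and then 10 ng/ml of the endotoxin LPS for 4 h. The LPS group (2 libraries) received 10 ng/ml LPS for 4 h, and the vehicle group (2 libraries) received vehicle for 5 h. Whether the LPS group had a vehicle step before LPS is not stated, and cells given SGA360 without LPS were not analysed here. No label ties the 2 libraries of a group to different mice or dishes. The p-values therefore reflect the scatter of these libraries, and that scatter may be technical.

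Cholesterol and fatty acids are both built from acetyl-CoA, and macrophages use them for membranes and for the lipid signals they release. In the sterol branch acetyl-CoA is condensed to mevalonate, isoprenoids are joined to squalene, and squalene is closed to lanosterol and trimmed to cholesterol. In the fatty acid branch acetyl-CoA is carboxylated to malonyl-CoA and assembled into palmitate, which elongases lengthen and desaturases bend. Both branches are driven by SREBP transcription factors, which INSIG proteins hold in the endoplasmic reticulum when sterol is plentiful. The aryl hydrocarbon receptor (AHR), a ligand-activated transcription factor, has been linked in liver cells to lower expression of cholesterol synthesis genes.

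Total counts ran from 7726973 to 9529817 per library. Vehicle replicate 1 stood apart, with 10001 genes detected against 12282 to 12643 in the other 5 libraries, and 4.92% of its counts on the ribosomal RNA gene Rn45s against at most 0.684% elsewhere. Among cell type markers, macrophage markers summed to between 21100 and 26200 CPM (a read count divided by its TMM-scaled library size, on the usual CPM scale). Lyz2 alone had 18300 to 22200 CPM of this. For LPS against vehicle, the log2 fold change was 1.3 for Adgre1 and 2.98 for Cd14. Fcgr1, Mertk and Csf1r fell (−2.39, −2.14 and −0.34), Cd68 and Lyz2 moved little (−0.11 and 0.06), and Itgam had no count. Of 8 adipocyte markers, 7 had no count in any library. Only 3 of these (Adipoq, Lep and Pck1) have 1 transcript row, and the rest are split over several rows. Fibroblast markers, all 7 with counts, were led by the collagens Col1a1, Col1a2 and Col3a1. Lum averaged 9.03 CPM, and Pdgfra, Dcn and Col6a3 are split over several transcript rows. Genes of this kind took 1.87% of all counts in the table, though Cd68, also of this kind, averaged 618 CPM. The fibroblast markers summed to 5210 and 4740 CPM in SGA360+LPS, 4730 and 4420 CPM in LPS, and 4680 and 5380 CPM in vehicle. Mesothelial markers, 7 of 8 with counts, summed to 303 and 326 CPM in SGA360+LPS, 313 and 318 CPM in LPS, and 486 and 441 CPM in vehicle, and 4 of the 7 tested were called lower with LPS by the test given below, where 17% of all genes tested were called lower. The part of either marker list in the results was not tested. In bulk RNA, fewer cells of a type and less RNA per cell cannot be told apart.

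For 10 members the table splits the gene into several transcript rows, and these rows hold few reads: across the table, symbols with several rows took 1.87% of all counts. The 7 members under 30 counts were all of this kind. Mvk (mevalonate kinase), Insig2 and Srebf1, which encodes SREBP-1, had 0 counts in all 6 libraries. Hmgcs1, which makes the mevalonate precursor HMG-CoA, had 0 and 3 counts in SGA360+LPS, 0 and 4 in LPS, and 0 and 1 in vehicle. Mvd, Acly and Me1 had 11, 16 and 1 counts in all. Pmvk, Fdps and Elovl1 passed the minimum but averaged 1.24 to 2.70 CPM. Whether such rows caught all reads of the gene is unknown, so no statement on the expression of these 10 genes is made, and the results turn on the 25 members with 1 row.

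The 3 genes of the regulator list that could be tested, Insig1, Srebf2 and the carrier gene Stard4, were higher in both LPS-treated groups than in vehicle. Insig1, which encodes the sterol-sensitive anchor that retains SREBP, had 322 and 331 CPM in SGA360+LPS, 314 and 308 CPM in LPS, and 220 and 226 CPM in vehicle. Its log2 fold change was 0.48 for LPS against vehicle (SE 0.06, adjusted p = 0.000224) and 0.55 for SGA360+LPS against vehicle (SE 0.06, adjusted p = 8.92e-05). These and all adjusted p-values below come from edgeR's quasi-likelihood test with Benjamini-Hochberg adjustment over the 9389 genes tested, and a gene is called when its adjusted p is under 0.05.

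Srebf2, which encodes SREBP-2, the main activator of the sterol branch, had 472 and 486 CPM in SGA360+LPS, 464 and 465 CPM in LPS, and 300 and 356 CPM in vehicle. The 4 LPS-treated libraries lay close together, and the vehicle libraries lay apart from each other but below all 4. The log2 fold change was 0.50 for LPS against vehicle (SE 0.08, adjusted p = 0.000877) and 0.55 for SGA360+LPS against vehicle (SE 0.08, adjusted p = 0.000548). Stard4, which encodes a carrier that moves cholesterol between membranes, had 81.3 and 79.1 CPM in SGA360+LPS, 80.1 and 78.5 CPM in LPS, and 55.7 and 49.4 CPM in vehicle. It rose by 0.59 with LPS (SE 0.10, adjusted p = 0.000947) and by 0.61 with SGA360+LPS (SE 0.10, adjusted p = 0.000867). All 3 regulators kept these calls under each of the 12 alternative settings.

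**Figure D1:**
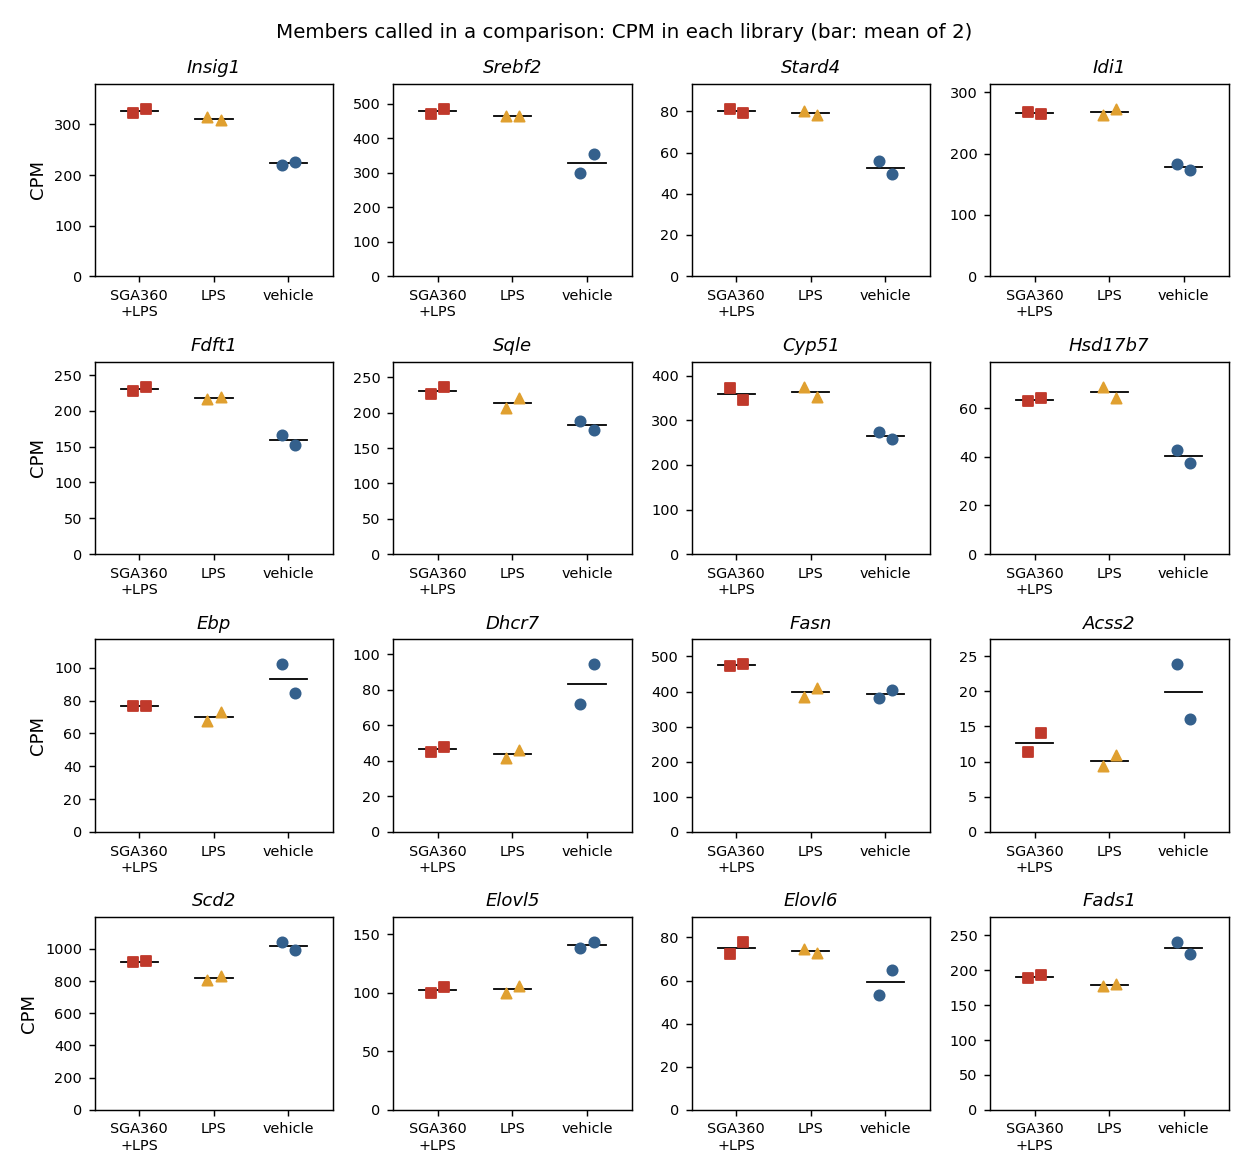
CPM in each library for the 16 members called in at least 1 comparison, with axes from 0; points are libraries (replicate 1 left, replicate 2 right) and the bar is the mean of 2. Insig1 sits at 308 to 331 CPM in the 4 LPS-treated libraries and at 220 and 226 CPM in vehicle.

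In LPS against vehicle, 14 of the 28 members tested were called, 8 higher and 6 lower, where 36.4% of all genes tested were called in either direction (19.4% higher and 17% lower). The called regulators were all higher (3 of 3), the sterol enzymes went both ways (5 higher and 2 lower of 15), and the called fatty acid enzymes were all lower (4 of 10), with Elovl6 called higher under 4 of 12 alternatives. These calls were 7 of 15 sterol enzymes and 4 of 10 fatty acid enzymes, or 7 of 13 and 4 of 9 among those with 1 transcript row. With 36.4% of all genes called and so few enzymes, no difference from the background is read from these counts. The changes were also small, all between 0.51-fold and 1.65-fold. Over the members with 1 transcript row, the median log2 fold change was 0.50 for the 3 regulators, 0.09 for 13 sterol enzymes and −0.16 for 9 fatty acid enzymes, against −0.01 for all genes tested. Over all 15 sterol enzymes tested the median was 0.04, and it moved with each library left out, between 0.02 (without vehicle replicate 2) and 0.15 (without LPS replicate 2). Over all 10 fatty acid enzymes tested it was −0.15, and it was −0.06 without LPS replicate 2. Without vehicle replicate 1, 18 of 28 members were called, where 41.1% of all genes tested were.

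Along the sterol branch, the first called enzyme was at the isoprenoid step. Idi1, which interconverts the isoprenoid building blocks, had 268 and 264 CPM in SGA360+LPS, 262 and 273 CPM in LPS, and 183 and 173 CPM in vehicle. Its log2 fold change was 0.59 for LPS against vehicle (SE 0.07, adjusted p = 8.02e-05), the smallest adjusted p among the members. Of the 50-base stretches of its transcript, 21.3% are also found in transcripts of annotated genes such as Gm13502 and Gm8911, so some of its reads could be lost or shared. Fdft1, squalene synthase, the first enzyme committed to sterols, had 228 and 234 CPM in SGA360+LPS, 217 and 219 CPM in LPS, and 167 and 153 CPM in vehicle (LPS against vehicle 0.45, SE 0.07, adjusted p = 0.000871). Its exons overlap those of Ctsb on the opposite strand, and no source used here says whether counting used strand. Of the 50-base stretches of Fdft1, 10.9% also occur in the annotated gene Gm6781.

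Sqle, squalene epoxidase, had 226 and 237 CPM in SGA360+LPS, 207 and 221 CPM in LPS, and 188 and 176 CPM in vehicle. The groups did not overlap, but the LPS step was the smallest of the called rises (0.23, SE 0.07, adjusted p = 0.0311). Its call was lost without any 1 of the 4 LPS-treated libraries (adjusted p 0.0533 and 0.0539 without SGA360+LPS replicates 1 and 2, and 0.0552 and 0.199 without LPS replicates 1 and 2). Over all alternatives the adjusted p of Sqle ran from 0.00758 to 0.199. Lss, which closes the sterol ring system, had 144 and 137 CPM in SGA360+LPS, 121 and 122 CPM in LPS, and 161 and 119 CPM in vehicle. Its vehicle libraries spanned the other groups and it was not called (adjusted p = 0.24).

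After ring closure some enzymes were called higher and others had no call. Cyp51, which removes a methyl group from lanosterol, had 373 and 346 CPM in SGA360+LPS, 376 and 353 CPM in LPS, and 273 and 259 CPM in vehicle. It rose by 0.45 with LPS (SE 0.07, adjusted p = 0.000702). Hsd17b7, a ketoreductase of the demethylation steps, had 62.7 and 64.2 CPM in SGA360+LPS, 68.8 and 64.0 CPM in LPS, and 42.9 and 37.4 CPM in vehicle. Its log2 fold change of 0.73 (SE 0.11, adjusted p = 0.000544) was the highest among the called members in LPS against vehicle. Msmo1 and Nsdhl, which act with it in demethylation, were not called (0.09 and 0.04, SE 0.11 and 0.09). Cyp51 exons overlap those of Akap9 on the opposite strand.

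The late enzymes included the falls. Dhcr7, which catalyses the last step of one of the final routes to cholesterol, had 45.0 and 47.9 CPM in SGA360+LPS, 41.6 and 46.4 CPM in LPS, and 72.3 and 94.3 CPM in vehicle. The vehicle libraries differed from each other, yet both lay above all 4 LPS-treated ones. The log2 fold change was −0.92 for LPS against vehicle (SE 0.14, adjusted p = 0.000481) and −0.84 for SGA360+LPS against vehicle (SE 0.14, adjusted p = 0.000911). Ebp, a sterol isomerase, had 76.8 and 77.0 CPM in SGA360+LPS, 67.4 and 73.1 CPM in LPS, and 102 and 84.9 CPM in vehicle.

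Ebp fell by 0.41 on the log2 scale with LPS (SE 0.11, adjusted p = 0.0139). That call was lost without LPS replicate 1 (adjusted p = 0.141) or 2 (0.0556), and the change was only −0.25 without vehicle replicate 1 (0.0434), in a range from 0.000216 to 0.141 over all alternatives. Sc5d, a late desaturase, Tm7sf2, a reductase acting before Dhcr7, and Acat2, a thiolase feeding the branch, were not called (0.20, −0.25 and −0.12). Acat2 shares 45.9% of its 50-base stretches with its paralog Acat3 and is uncertain for that reason. Without vehicle replicate 1, Sc5d, Tm7sf2 and Msmo1 were called as well.

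**Figure D2:**
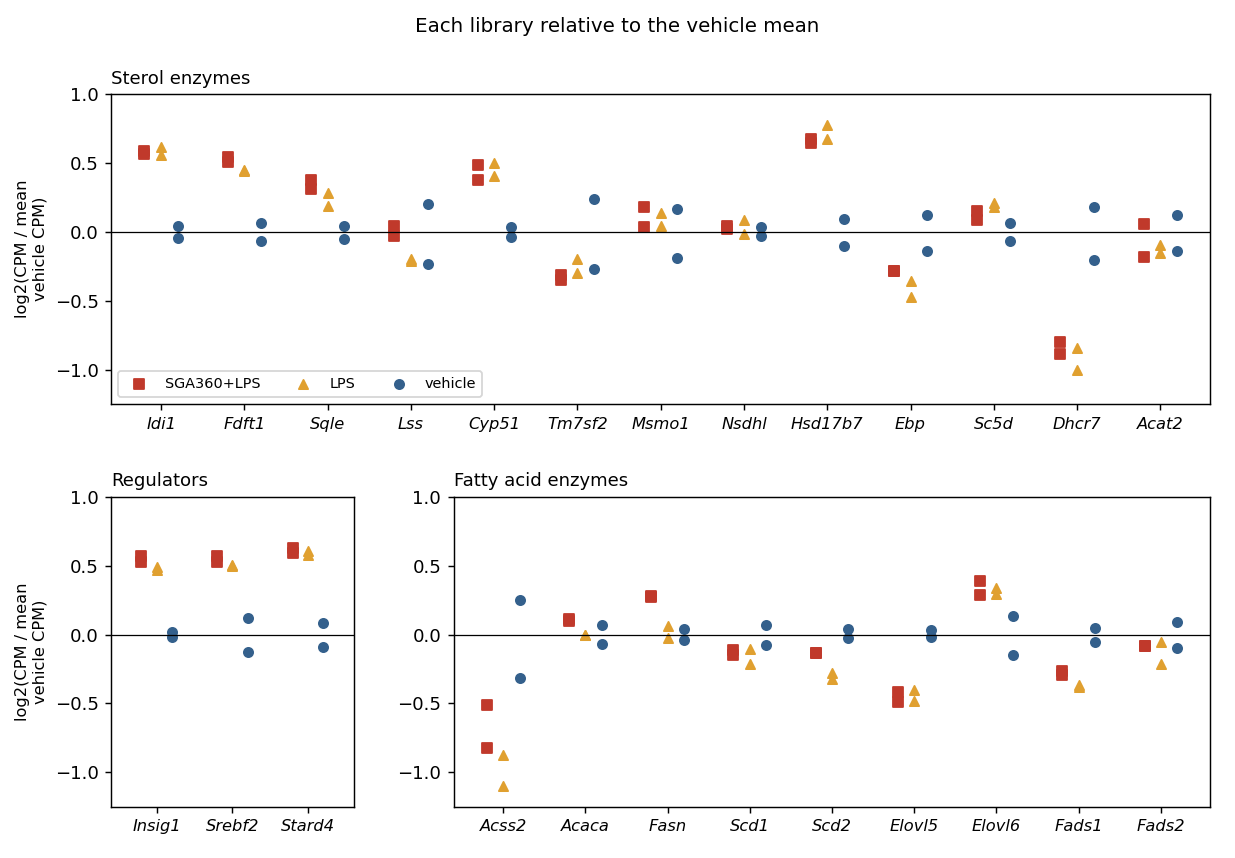
log2 of each library's CPM over the mean vehicle CPM for the 25 members with 1 transcript row, in list order. This is not strictly pathway order, as Acat2, which feeds the sterol branch, is drawn last and Fads2 after Fads1. Symbols mark the 3 groups, 2 libraries each. Idi1, Fdft1, Cyp51, Hsd17b7 and the 3 regulators lie above the vehicle libraries, Dhcr7, Elovl5 and Fads1 below them.

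Start-site sequences are shown for the 2 called members of each direction with the smallest p in LPS against vehicle that have an entry in the RefSeq promoter table (build GRCm38.p6, the assembly of mm10). Of the 25 members with 1 row, 19 had a window of 300 bases, from 250 before to 50 after the start site, at the start of the counted transcript. Insig1 lies on chr5:28071162-28071461, Idi1 on chr13:8885356-8885655, Dhcr7 on chr7:143822917-143823216 and Elovl5 on chr9:77917115-77917414, all on the plus strand. Capitals mark CCAAT or its reverse complement ATTGG, the letters bound by NF-Y, a known partner of SREBP.

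Insig1 (higher with LPS): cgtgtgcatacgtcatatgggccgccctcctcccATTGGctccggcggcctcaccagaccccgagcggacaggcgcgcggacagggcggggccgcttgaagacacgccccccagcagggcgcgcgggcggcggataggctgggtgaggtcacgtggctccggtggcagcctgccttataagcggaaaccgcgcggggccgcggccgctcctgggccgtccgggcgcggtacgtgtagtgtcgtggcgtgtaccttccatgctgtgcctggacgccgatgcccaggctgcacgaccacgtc

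Idi1 (higher with LPS): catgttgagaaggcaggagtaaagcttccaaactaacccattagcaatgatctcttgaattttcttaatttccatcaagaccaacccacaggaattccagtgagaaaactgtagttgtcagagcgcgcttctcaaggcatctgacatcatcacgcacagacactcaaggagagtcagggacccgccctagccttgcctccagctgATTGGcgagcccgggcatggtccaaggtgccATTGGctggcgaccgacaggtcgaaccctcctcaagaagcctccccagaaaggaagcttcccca

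Dhcr7 (lower with LPS): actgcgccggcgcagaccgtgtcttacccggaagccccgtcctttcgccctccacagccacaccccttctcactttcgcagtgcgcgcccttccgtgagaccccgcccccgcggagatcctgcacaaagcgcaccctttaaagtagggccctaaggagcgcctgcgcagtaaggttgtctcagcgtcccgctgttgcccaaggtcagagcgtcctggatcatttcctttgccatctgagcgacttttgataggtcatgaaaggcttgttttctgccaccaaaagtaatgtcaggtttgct

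Elovl5 (lower with LPS): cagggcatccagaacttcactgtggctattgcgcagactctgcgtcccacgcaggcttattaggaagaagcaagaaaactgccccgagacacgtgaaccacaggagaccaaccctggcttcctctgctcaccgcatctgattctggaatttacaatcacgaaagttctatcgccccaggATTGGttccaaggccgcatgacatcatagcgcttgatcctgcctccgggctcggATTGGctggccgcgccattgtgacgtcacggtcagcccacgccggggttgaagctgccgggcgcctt

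Insig1 holds 1 such box, Idi1 and Elovl5 hold 2 each, and Dhcr7 holds 0. Read on both strands, CCAAT occurred in 5 of 5 windows of members called higher with LPS, in 3 of 4 of those called lower and in 6 of 10 of those with no call, against 37.4% of all 32851 windows in the table. GGGCGG, the GC box read by SP1, occurred in 5 of 5, 3 of 4 and 7 of 10, against 35.7%, and CACGTG, an E-box, in 2 of 5, 1 of 4 and 1 of 10, against 7.15%. A strict form of the sterol response element, TCACNCCAC, was in 0 of the 19 windows and in 1.24% of all. A base could count towards more than 1 motif, and a match or its lack describes only these letters in these windows.

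Neither enzyme of palmitate assembly was called in LPS against vehicle. Acaca, acetyl-CoA carboxylase, which makes malonyl-CoA, had 154 and 156 CPM in SGA360+LPS, 144 and 144 CPM in LPS, and 137 and 151 CPM in vehicle. Its log2 fold change was 0.01 for LPS against vehicle (95% interval −0.17 to 0.18). Of its 50-base stretches 55.4% also occur in the annotated gene Gm5182, so its level is uncertain. Fasn, the synthase that builds palmitate, had 474 and 477 CPM in SGA360+LPS, 385 and 410 CPM in LPS, and 381 and 403 CPM in vehicle. The LPS and vehicle libraries overlapped (0.02, 95% interval −0.13 to 0.17), while both SGA360+LPS libraries lay above all others.

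Of the 4 fatty acid enzymes called lower with LPS, Scd2, Elovl5 and Fads1 are desaturases or elongases. Scd2, a desaturase that puts the first double bond into saturated fatty acids, had 918 and 922 CPM in SGA360+LPS, 808 and 831 CPM in LPS, and 1040 and 992 CPM in vehicle. It took 42.6% of the summed CPM of the branch and fell by 0.31 on the log2 scale with LPS (SE 0.06, adjusted p = 0.00265). Its paralog Scd1 had 183 and 188 CPM in SGA360+LPS, 189 and 175 CPM in LPS, and 193 and 213 CPM in vehicle, and was not called (−0.16, 95% interval −0.34 to 0.01). Without vehicle replicate 1 Scd1 was called lower (adjusted p 0.0428, in a range from 0.0428 to 0.628).

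Elovl5, an elongase of polyunsaturated fatty acids, had 99.6 and 105 CPM in SGA360+LPS, 100 and 106 CPM in LPS, and 138 and 143 CPM in vehicle. It was lower in both LPS-treated groups (−0.44 for LPS against vehicle, SE 0.08, adjusted p = 0.00196). Fads1, the desaturase that leads to arachidonic acid, had 189 and 193 CPM in SGA360+LPS, 178 and 180 CPM in LPS, and 240 and 223 CPM in vehicle (−0.37, SE 0.07, adjusted p = 0.00222). Its neighbour Fads2, which acts earlier on that route, was not called (−0.13, 95% interval −0.36 to 0.10). Elovl6, which lengthens palmitate, had 72.4 and 77.7 CPM in SGA360+LPS, 74.8 and 72.7 CPM in LPS, and 53.5 and 65.0 CPM in vehicle, with a log2 fold change of 0.31 and no call in LPS against vehicle (adjusted p = 0.0529). It was called higher in 4 of 12 alternatives (RLE scaling, no filter and without vehicle replicate 2 among them), with adjusted p from 0.00106 to 0.19, and its value was 0.48 without vehicle replicate 2 and 0.20 without vehicle replicate 1.

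Acss2, which makes acetyl-CoA from acetate, was the least abundant of the well-counted enzymes of the branch, with 11.3 and 14.0 CPM in SGA360+LPS, 9.31 and 10.9 CPM in LPS, and 23.8 and 16.1 CPM in vehicle. Its log2 fold change of −0.97 with LPS (SE 0.23, adjusted p = 0.00851) was the steepest fall among the members, but was not called without LPS replicate 1 (adjusted p = 0.0792, the highest of a range from 3.38e-05). Acss2 exons overlap those of Ggt7 and Acss2os on the opposite strand, as those of Idi1, Lss and Elovl6 do with Gm48574, 4930483K19Rik and Gm35986. Tm7sf2 and Scd2 share exon sequence with Vps51 and Mir5114 on their own strand. The counted Acss2 transcript (NM_019811) lies at chr2:155518043-155562743 (plus strand) in mm10. Scd2 (NM_009128) lies at chr19:44293676-44306862 (plus strand) and Fasn (NM_007988) at chr11:120805958-120824547 (minus strand), and each of the genes is protein-coding in GENCODE M21.

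**Figure D3:**
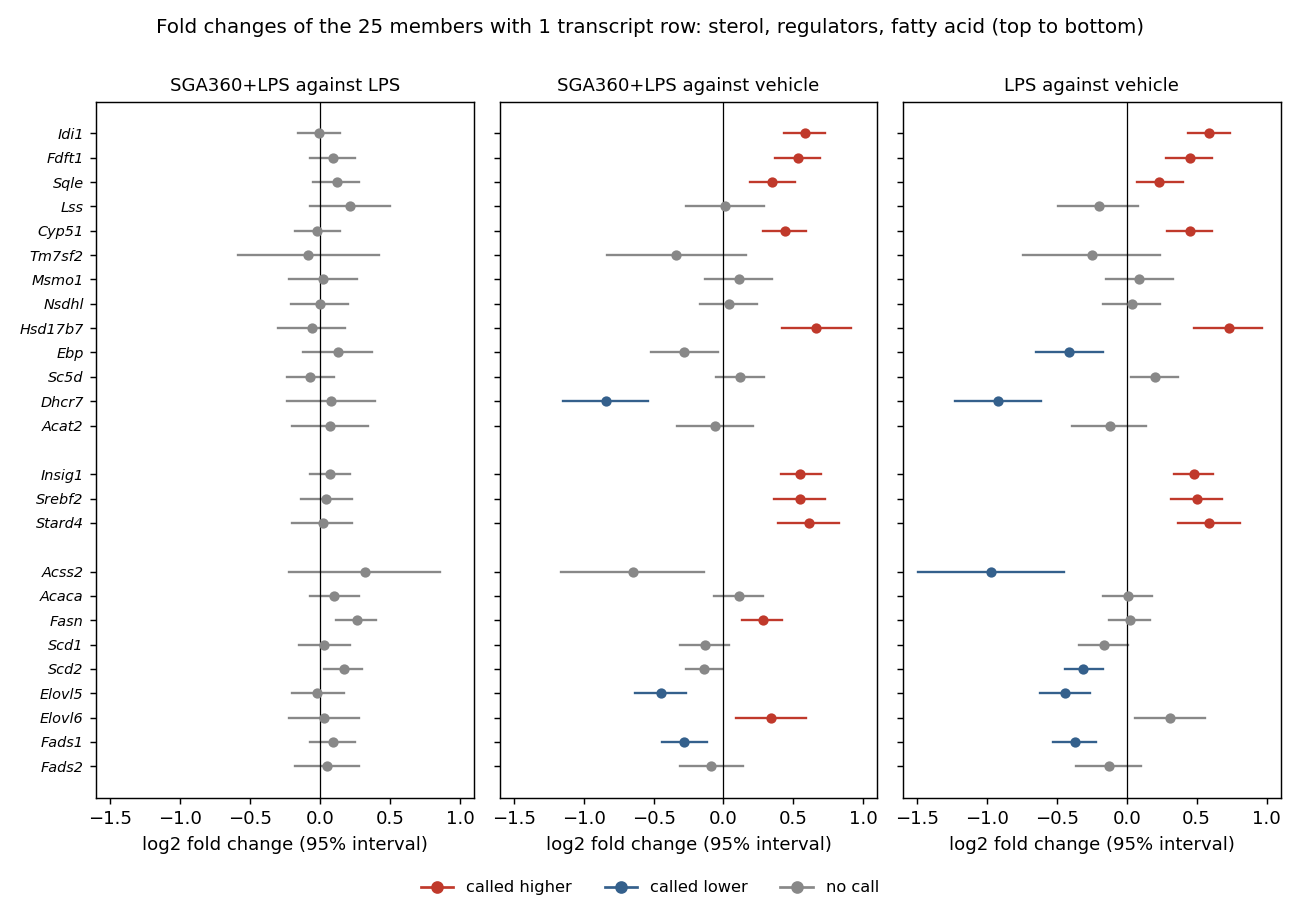
log2 fold change with its 95% interval for the 25 members with 1 transcript row in each of the 3 comparisons; colour marks calls at an adjusted p under 0.05. In SGA360+LPS against LPS 0 of them are called, while Dhcr7 and Acss2 reach −0.92 and −0.97 when LPS is set against vehicle.

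In SGA360+LPS against vehicle, 13 of 28 members were called, 10 higher and 3 lower, where 33.1% of all genes tested were called (17.9% higher and 15.2% lower). This comparison shares the vehicle libraries with the previous one, so the values are set side by side only. All 3 regulators were called higher. Of 15 sterol enzymes 5 were higher and 1 lower, and of 10 fatty acid enzymes 2 were higher and 2 lower. Without vehicle replicate 1 there were 15 calls among the 28, where 36.7% of all genes tested were called. Idi1 stood at 0.58, against 0.59 for LPS alone, Fdft1 at 0.53 against 0.45, Sqle at 0.35 against 0.23, Cyp51 at 0.44 against 0.45, Hsd17b7 at 0.66 against 0.73 and Dhcr7 at −0.84 against −0.92.

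Fasn and Elovl6 were called higher in SGA360+LPS against vehicle, at 0.28 (SE 0.07, adjusted p = 0.0083) and 0.34 (SE 0.11, adjusted p = 0.041), and Elovl5 and Fads1 were called lower, at −0.45 (SE 0.08, adjusted p = 0.00166) and −0.28 (SE 0.07, adjusted p = 0.0118). Ebp, Acss2 and Scd2 had no call there (−0.28, −0.65 and −0.14; adjusted p = 0.07, 0.0508 and 0.0997). The fatty acid count moved with single libraries, as did the share of all genes called. Without SGA360+LPS replicate 1 or without replicate 2 only Elovl5 was called among the 11 then tested, where 18.2% and 18.7% of all genes were called. Without vehicle replicate 2 there were 7 calls, where 53.8% of all genes were called. The call of Elovl6 was lost in 7 of 12 alternatives, with adjusted p from 0.000667 to 0.24, and its value was 0.22 without vehicle replicate 1. The calls of Fasn (0.0511 and 0.0616) and Fads1 (0.146 and 0.102) were lost without SGA360+LPS replicates 1 and 2, in ranges over all alternatives from 0.000602 to 0.0616 and from 0.00255 to 0.146. Sqle lost its call without SGA360+LPS replicate 2 (0.0544, the highest of a range from 8.36e-05).

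The comparison of SGA360+LPS with LPS bears on the AHR ligand under endotoxin. As no vehicle step is stated for the LPS group, the ligand and the pretreatment step cannot be told apart. With edgeR 0 of 28 members were called, and 0.0746% of all genes tested were. At an unadjusted p under 0.05 there were 2 members, Fasn and Scd2, where 2.94% of all genes tested had such a p. DESeq2 called 0 members as well. Fasn was at 475 ± 1.95 CPM in SGA360+LPS and 398 ± 17.2 CPM in LPS (SD, n = 2 each). Its log2 fold change was 0.26 (95% interval 0.11 to 0.40, unadjusted p = 0.00283, adjusted p = 1 with edgeR). Its lowest adjusted p over the alternatives was 0.186, so it was not called in any of them. Scd2 stood at 920 ± 3.04 CPM in SGA360+LPS and 819 ± 16.2 CPM in LPS, a log2 fold change of 0.17 (95% interval 0.03 to 0.30).

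For 22 of the 25 members with 1 row, the whole 95% interval of the SGA360+LPS against LPS change lay between −0.50 and 0.50 on the log2 scale. The exceptions were Lss, Tm7sf2 and Acss2, whose bounds reached 0.50, −0.59 and 0.86. For Srebf2 the interval ran from −0.14 to 0.23, for Insig1 from −0.07 to 0.21 and for Cyp51 from −0.18 to 0.14. Among these 25, both SGA360+LPS libraries lay above both LPS libraries for 4 of 13 sterol enzymes (Fdft1, Sqle, Lss and Ebp), 5 of 9 fatty acid enzymes and 2 of 3 regulators (Insig1 and Srebf2). Both lay below for 2 sterol enzymes (Tm7sf2 and Sc5d), 0 fatty acid enzymes and 0 regulators. Among all genes tested the shares were 19.9% above and 19.6% below. The 5 fatty acid enzymes were Acss2, Acaca, Fasn, Scd2 and Fads1, with log2 fold changes from 0.09 to 0.32. The summed level of the 10 fatty acid enzymes was 2180 and 2210 CPM in SGA360+LPS, 1970 and 2000 CPM in LPS, and 2290 and 2280 CPM in vehicle, and Scd2 and Fasn made up most of it. That of the 15 sterol enzymes was 2090 and 2040 CPM in SGA360+LPS, 2020 and 2010 CPM in LPS, and 1850 and 1660 CPM in vehicle.

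Per kb of exon, levels spanned a wide range within each branch. In vehicle, Scd2 (186 CPM per kb) and Msmo1 (162 CPM per kb) led, followed by Insig1 (84.0), Srebf2 (71.4), Sc5d (68.3), Fads1 (66.8), Sqle (65.9), Idi1 (61.9) and Cyp51 (61.0 CPM per kb). At the low end were Elovl6 (9.96), Tm7sf2 (9.03) and Hsd17b7 (8.76 CPM per kb), with Acss2 below them. In LPS the order among the sterol enzymes changed behind Msmo1 (172 CPM per kb), with Idi1 (93.2) and Cyp51 (83.5) ahead of Sc5d (78.2) and Sqle (77.5 CPM per kb). Sc5d and Sqle, neighbours in this order, differ by less than the spread between the libraries of a group.

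**Figure D4:**
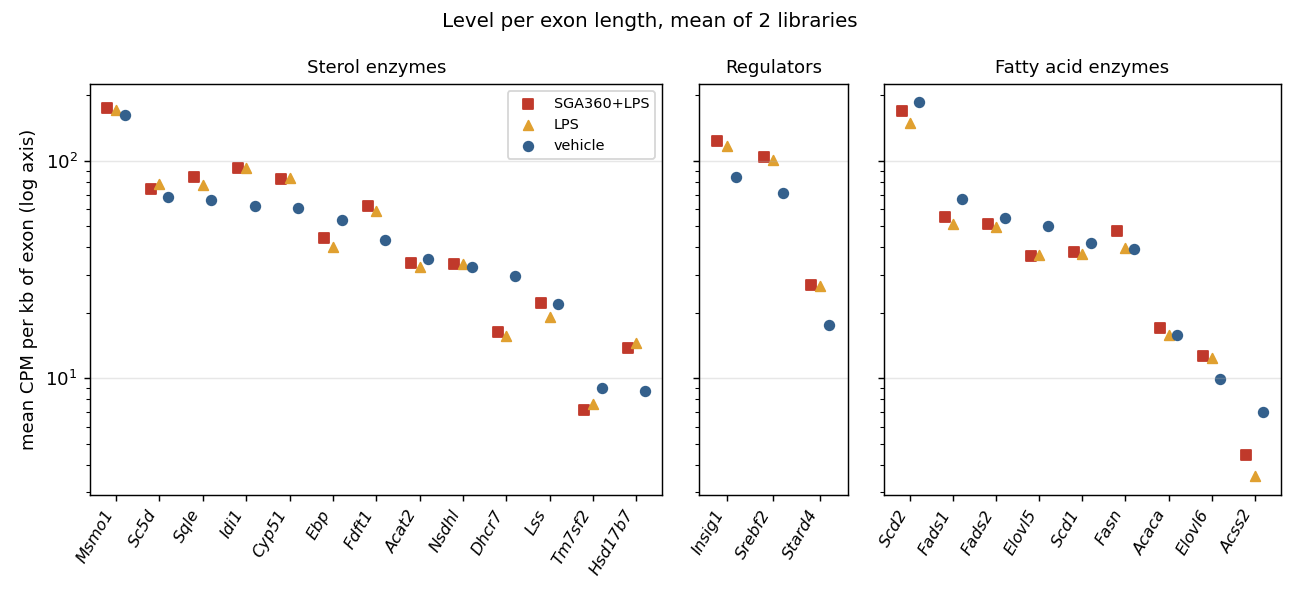
Mean CPM per kb of exon (log axis) for the 25 members with 1 transcript row, ordered within each panel by the vehicle level; symbols mark the 3 groups. Scd2 and Msmo1 are the highest in vehicle, at 186 and 162 CPM per kb.

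Genes of the sterol pathway outside the list of 35 also had calls in both directions. Of 11 tested from a list of 16, 2 were higher and 2 lower with LPS, and with SGA360+LPS 3 were higher and 3 lower, each relative to vehicle. Of all genes tested, 36.4% (19.4% higher and 17% lower) were called with LPS and 33.1% (17.9% higher and 15.2% lower) with SGA360+LPS, so 4 of 11 is a count near the background. Soat1, which esterifies cholesterol for storage, had 240 and 258 CPM in SGA360+LPS, 250 and 256 CPM in LPS, and 673 and 606 CPM in vehicle (log2 fold change of LPS against vehicle −1.34, SE 0.07, adjusted p = 3.3e-07). Ch25h, whose product 25-hydroxycholesterol restrains SREBP, had 18.4 and 16.8 CPM in SGA360+LPS, 21.3 and 25.9 CPM in LPS, and 2.23 and 1.04 CPM in vehicle (3.85, SE 0.29, adjusted p = 3.57e-06). Npc1, which exports cholesterol from lysosomes, had 279 and 310 CPM in SGA360+LPS, 253 and 287 CPM in LPS, and 356 and 467 CPM in vehicle (−0.61, SE 0.12, adjusted p = 0.00294).

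Of 13 tested genes from a list of 24 other fatty acid genes, 5 were higher and 2 lower for LPS against vehicle and 5 were higher and 1 lower for SGA360+LPS, beside the same shares of all genes (36.4% and 33.1% called). Those called genes with a mean of at least 5 CPM were all higher with LPS. They were Acsl5, which activates fatty acids with CoA (0.91), Hsd17b12 and Hacd2, which act with the elongases in chain lengthening (0.84 and 0.61), and the desaturase relative Fads3 (0.63). For SGA360+LPS against vehicle their values were 0.79, 0.74, 0.50 and 0.81. Between SGA360+LPS and LPS, edgeR called 0 of the 11 and 0 of the 13, with 1 and 0 at an unadjusted p under 0.05.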

How the data were processed

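PolyA-enriched RNA of 6 libraries was measured. The deposited table holds whole-number read counts, not normalized, for 34751 RefSeq transcript rows with symbol, position and exon length. TopHat2 2.0.13, HTSeq 0.5.4p3 and the build mm10 are named, per the submitters' processing notes. No source used here gives the strand setting, annotation version or treatment of shared reads. Every sample column matched a label. Rows were summed per symbol, and coordinates are given 1-based. 

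edgeR 4.0.16 in R 4.3.3 was used: filterByExpr with a minimum count of 10, TMM scaling, then glmQLFit with glmQLFTest, in 1 model of 3 groups over all 6 libraries (3 residual degrees of freedom). SE is the absolute log2 fold change over the square root of F, and 95% intervals use the test's degrees of freedom. CPM use TMM-scaled library sizes; CPM per kb divide them by the deposited exon length. Replicates differed by more than sampling noise. The script was checked on simulated counts. Alternatives were RLE scaling, DESeq2 1.42.0, no filter, 1 row per symbol, 2 groups only, a replicate block and leaving out each library. Transcripts were compared with GENCODE M21 by exact 50-base stretches and exon overlap.

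The members, lists and named-gene rule were chosen with earlier results of these data known. Values per library are given for members called in any comparison with a mean of at least 5 CPM, for the regulators, and for fixed enzymes whatever their result; of other pathway genes, those with the largest called change per list, some of which are not reported here. Lss was named after its values were seen.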

Additional observations from a re-analysis of the deposited data

How the results depend on the processing

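The direction of each called member held in all 12 alternatives (0 reversals), and the 3 regulators kept their calls throughout. In LPS against vehicle, 5 to 10 sterol enzymes and 3 to 6 fatty acid enzymes were called with 1 library left out, against 7 and 4. In SGA360+LPS against vehicle these ranges were 5 to 9 and 1 to 7, against 6 and 4. The fatty acid count of 1 came without either SGA360+LPS library and that of 7 without vehicle replicate 2. The share of all genes called in that comparison moved the same way, to 18.2%, 18.7% and 53.8%, against 33.1%, and in LPS against vehicle it ran from 20.9% to 55.6%, against 36.4%. Adding a replicate block gave 7 and 5, 6 and 4, and 0 and 0 calls in LPS against vehicle, SGA360+LPS against vehicle and SGA360+LPS against LPS. Deviations of same-numbered libraries correlated at 0.16 between SGA360+LPS and LPS but at 0.015 and −0.0066 with vehicle. Because the vehicle libraries differed most from each other, these values cannot decide whether the numbers pair the libraries. The main model does not pair them. In SGA360+LPS against LPS 0 members were called under each of the 12 alternatives, with a lowest adjusted p of 0.186. With 2 libraries a group, and a vehicle pair whose biological coefficient of variation in edgeR of 0.191 exceeds 0.0491 in SGA360+LPS and 0.0586 in LPS, small differences may go uncalled.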
